A study of Mus musculus with 12 samples.

Results

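The expression of 8 genes of cholesterol synthesis and its control by SREBP2 was followed in CD4+ T cells of 12 female mice. The genes are Hmgcs1, Idi1, Fdft1, Sqle, Lss, Cyp51, Insig1 and Srebf2, chosen by name from a table of 35275 genes. The choice was made with earlier results of these data known, so shares over all genes set beside the 8 are a description. All 8 were among the 13115 genes that passed the filter on low values, an average over the 12 mice of 0.5 FPKM or more (fragments per kilobase of transcript, scaled to all mapped fragments). Each mouse gave 1 library, and 4 groups held 3 mice each. B6 mice (C57BL/6) either received anti-CD45RB or stayed untreated, and so did SLE123 mice (B6.NZMSle1/Sle2/Sle3). SLE123 mice are congenic: on the B6 background they carry 3 lupus susceptibility regions, Sle1, Sle2 and Sle3, so each strain contrast covers all 3 regions at once. Treatment was the antibody MB23G2, in 5 intraperitoneal doses of 100 μg from day 0 to day 7, and no control antibody is named for the untreated mice. The methods give an age of 9 weeks, and a legend gives up to 12 weeks. The cells came from negative magnetic sorting, and the methods also mention a CD25 sort that no library label names. The titles of the treated SLE123 libraries carry a letter C that is not explained, and their group follows also from the treatment field, which names the antibody.

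Cholesterol is built from acetyl-CoA through mevalonate, isoprenoid diphosphates and squalene. The transcription factor SREBP2, encoded by Srebf2, waits as a precursor in the membrane of the endoplasmic reticulum, bound to its escort SCAP. When sterols are plentiful, INSIG proteins hold SCAP there; when sterols fall, SREBP2 moves to the Golgi, is cleaved, and its released part enters the nucleus and binds sterol regulatory elements. Genes of synthesis enzymes, Insig1 and Srebf2 itself are known targets, and T cells raise this program when they grow. Transcript levels do not measure the cleaved factor or sterols.

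RefSeq promoters (GRCm38.p6, 250 bases before the annotated start) were found for 6 of the 8 genes, and there was no entry for Fdft1 or Sqle. The sequences of 3 are shown because SREBP2 acts through such DNA. Hmgcs1 and Srebf2 held a match to the letters searched for a sterol regulatory element. Cyp51, the gene with the largest log2 difference in B6, held no match to those letters. Other forms of the element were not searched. Capitals mark the element (TCACNCCAC, or its first 8 letters TCACNCCA) and the CCAAT box, read on either strand as TCACCCCA and ATTGG or CCAAT. All are written 5′ to 3′ on the gene's own strand, from chr13:119690101-119690350 on the plus strand, chr15:82147019-82147268 on the plus strand and chr5:4104698-4104947 on the minus strand, in that order.
Hmgcs1: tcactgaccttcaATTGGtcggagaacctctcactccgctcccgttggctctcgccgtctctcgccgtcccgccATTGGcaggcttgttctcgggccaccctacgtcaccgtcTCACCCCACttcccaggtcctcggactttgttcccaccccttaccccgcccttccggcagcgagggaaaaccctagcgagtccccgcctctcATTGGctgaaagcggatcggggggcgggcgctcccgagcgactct
Srebf2: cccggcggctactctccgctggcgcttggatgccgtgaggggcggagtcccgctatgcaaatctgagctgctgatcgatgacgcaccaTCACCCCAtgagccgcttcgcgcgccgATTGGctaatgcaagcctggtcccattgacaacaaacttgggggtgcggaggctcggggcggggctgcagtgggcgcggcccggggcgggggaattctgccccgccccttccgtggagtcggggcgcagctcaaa
Cyp51: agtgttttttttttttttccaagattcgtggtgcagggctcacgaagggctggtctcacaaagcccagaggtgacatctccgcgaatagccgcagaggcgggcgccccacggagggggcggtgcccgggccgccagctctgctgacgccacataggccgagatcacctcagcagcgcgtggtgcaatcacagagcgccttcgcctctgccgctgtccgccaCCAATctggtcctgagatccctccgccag

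Among 32851 promoters of 300 bases (these 250 and the 50 after the start), the 9-letter element TCACNCCAC was in 1.24% and the 8-letter form TCACNCCA, which lies within it, in 4.36%. The first was at position -137 of Hmgcs1 alone among the 6 genes, and the second there and at position -162 of Srebf2. The letters CCAAT, the box bound by NF-Y, were in 6 of the 6 promoters and in 37.4% of all. GGGCGG, the box bound by SP1, was in 6 of the 6 and in 35.7% of all. The letters TGACG, known from CREB binding, was in 4 of the 6 and in 20.8% of all, and the E-box CACGTG was in 1, that of Insig1, and in 7.15% of all. Both strands were searched for each motif. These are matches of letters, and sequence outside the window was not analysed here.

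The libraries held 13562933 to 23641603 fragments, recovered from the FPKM values, with a median of 16827791. The fewest fragments behind a value of the 8 genes were 134, for Idi1, which gives a counting error of 8.64%, and the most were 7062, for Srebf2. CD4+ T cell markers (Cd3e, Cd3d, Cd3g, Cd4, Lck, Cd28, Cd5) summed to 1654 to 2103 FPKM over the 12 mice, and 7 of 7 were above 0 in each. Transcripts typical of other cells were also present, and how they entered the libraries was not tested. Immunoglobulin transcripts took 0.0936% to 0.355% of fragments in the B6 mice. In the SLE123 mice they took 2.63% to 12.8%, most of all in untreated replicate 3. Transcripts of liver genes such as Alb summed to 47.1 to 55.2 FPKM in the 6 B6 mice and to 51.8 in SLE123 treated replicate 1. In the other 5 SLE123 mice that sum was 0.0296 to 0.396 FPKM. These 2 SLE123 libraries were therefore also left out together, a choice made after seeing the data.

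In untreated B6 mice the 8 genes covered a wide range of levels. Srebf2 was the highest at 70.5 ± 0.901 FPKM (SD, n = 3). Hmgcs1 stood at 20.02 ± 1.63 FPKM and Insig1 at 17.2 ± 2.13 FPKM, with overlapping mice. Cyp51 and Fdft1 followed at 10.2 ± 1.40 and 8.72 ± 1.21 FPKM, also overlapping. Sqle stood apart from both neighbours at 6.35 ± 0.826 FPKM, and Lss and Idi1 overlapped at 4.42 ± 0.261 and 3.77 ± 0.975 FPKM. FPKM divides by transcript length as the authors set it, so this order holds on that scale.

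**Figure D1:**
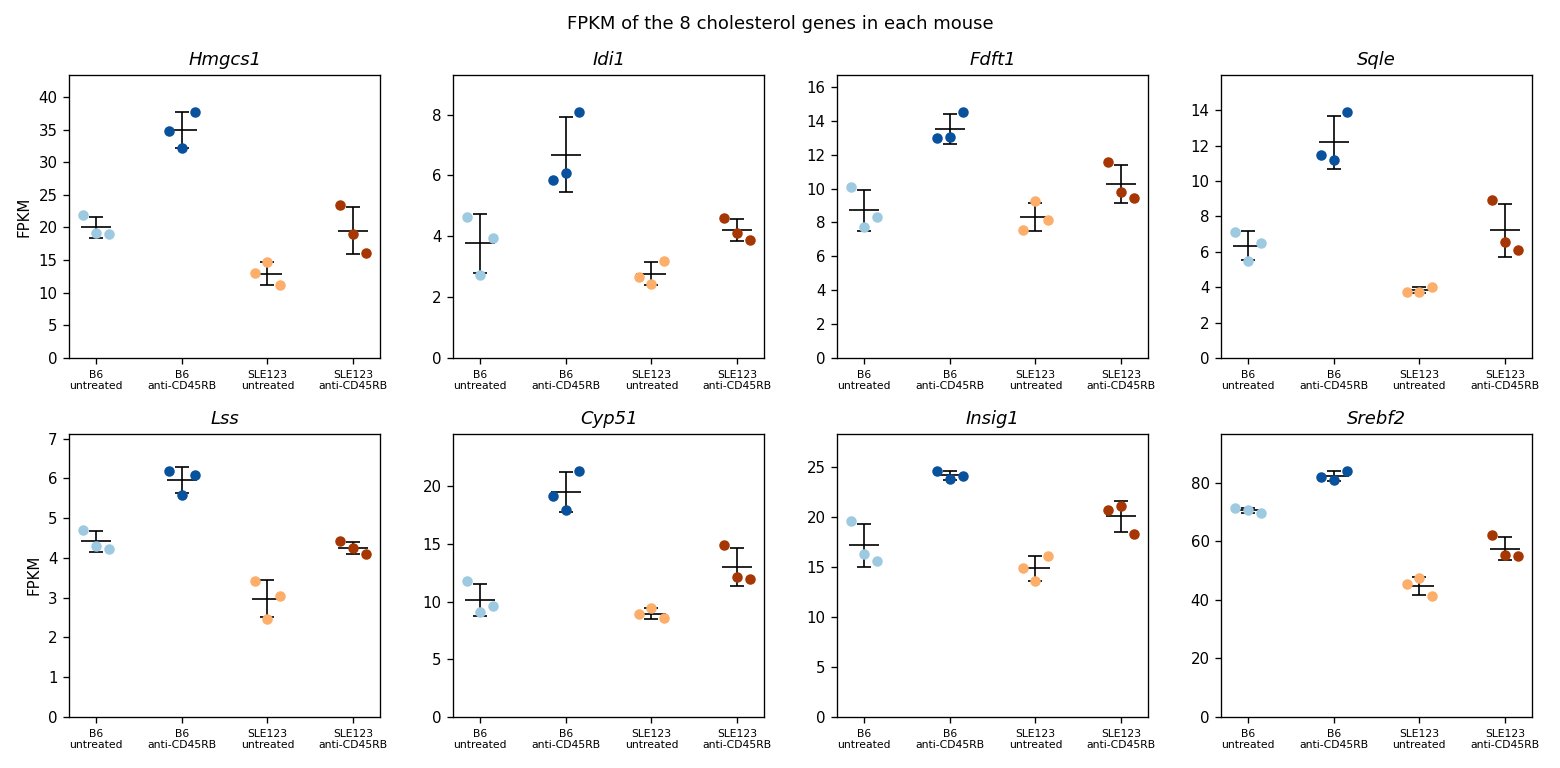
FPKM of each of the 8 genes (y axes, linear from 0) in each mouse of the 4 groups; points are single mice, and the bars are the mean and SD of 3 mice. In each panel the 3 treated mice of a strain lie above the 3 untreated mice of that strain.

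The first comparison asked what anti-CD45RB did to these transcripts in B6 mice. All 8 rose: limma on log2(FPKM + 1) called 8 of 8 higher at an adjusted p under 0.05, where 8.74% of the 13115 genes tested were called higher. Group means rose between 1.17-fold for Srebf2 and 1.92-fold for Cyp51 and Sqle. The median of the 8 log2 differences was 0.64, against a median of -0.0024 over all genes. The 8 pairs of groups did not overlap, as was so, in the higher direction, for 19.4% of all genes. In bulk samples, more cells of a type and more RNA per cell cannot be told apart, and both could move such values.

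Hmgcs1, an early enzyme that makes HMG-CoA, read 34.8, 32.2 and 37.7 FPKM in treated B6 replicates 1, 3 and 5. Untreated B6 replicates 3, 4 and 5 read 21.9, 19.2 and 19.0 FPKM. The lowest treated mouse was well above the highest untreated mouse. The log2 difference was 0.77 (SE 0.0754, limma adjusted p = 0.0022).

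Idi1, the isomerase that makes the reactive isoprenoid unit, read 5.85, 6.09 and 8.09 FPKM in treated B6 mice. Untreated B6 mice read 4.65, 2.72 and 3.94 FPKM, so the groups were apart but the spread was wide. The log2 difference was 0.70 (SE 0.177, limma adjusted p = 0.043), and it was not past the threshold when any 1 of the 6 mice was left out. Part of its transcript, 22.6%, matches the processed pseudogene Gm13502 at 100% identity, and that gene was listed at no more than 0.608 FPKM.

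Fdft1, squalene synthase, commits the pathway to sterols. It read 12.99, 13.03 and 14.5 FPKM in treated B6 mice and 10.1, 7.75 and 8.32 FPKM in untreated ones, without overlap. The log2 difference was 0.58 (SE 0.0965, limma adjusted p = 0.013). Its level is less certain than those of the others, because 18.3% of its exonic bases lie opposite exons of Ctsb, a gene at up to 115 FPKM, and the strand setting of the counts is not given in the sources used here. Ctsb itself differed by 0.06 on the log2 scale in this comparison (limma adjusted p = 0.34).

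Sqle, squalene epoxidase, is the first oxygen-dependent step. Treated B6 mice read 11.5, 11.2 and 13.9 FPKM, and untreated B6 mice read 7.09, 5.46 and 6.496 FPKM. The highest untreated mouse was far below the lowest treated mouse. The log2 difference was 0.84 (SE 0.112, limma adjusted p = 0.0059).

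Lss, lanosterol synthase, closes the sterol rings. It read 6.20, 5.59 and 6.09 FPKM in treated B6 mice and 4.72, 4.31 and 4.23 FPKM in untreated ones. The groups did not overlap, but the difference was among the smaller ones, at 0.36 on the log2 scale (SE 0.0716, limma adjusted p = 0.021). It missed the threshold in 4 of the 6 fits that left out 1 mouse (treated replicates 1 and 5, untreated replicates 4 and 5), at adjusted p between 0.057 and 0.078.

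Cyp51, the lanosterol demethylase, read 19.1, 17.99 and 21.4 FPKM in treated B6 mice. Untreated B6 mice read 11.8, 9.11 and 9.61 FPKM, all far lower. The log2 difference of 0.88 was the largest of the 8 (SE 0.102, limma adjusted p = 0.0036).

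The differences of the regulators were among the smaller ones. Insig1, which holds SCAP and SREBP2 in the endoplasmic reticulum, read 24.6, 23.8 and 24.1 FPKM in treated B6 mice and 19.6, 16.3 and 15.6 FPKM in untreated ones. Its log2 difference was 0.48 (SE 0.0807, limma adjusted p = 0.013), and without untreated replicate 4 its adjusted p was 0.058. Srebf2 read 81.8, 80.9 and 84.2 FPKM in treated B6 mice and 71.4, 70.6 and 69.6 FPKM in untreated ones. Its log2 difference was the smallest, 0.22, with the smallest error (SE 0.0291, limma adjusted p = 0.0060).

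The untreated B6 mice were not alike: replicate 3 was the highest of its group in 8 of the 8 genes. Among treated B6 mice, replicate 5 was the highest in 6 of the 8. Without untreated replicate 4, 5 of the 8 genes were called, of 675 genes called in all, against 1948 with all 6 mice; Idi1, Lss and Insig1 were the genes no longer called. Each of the 8 differences stayed above 0 in the 6 fits that left out 1 mouse.

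Markers of other cells moved with treatment in B6 too. B cell markers rose in 5 of 6 genes, and their sum went from 6.11 to 7.30 FPKM in untreated mice to 25.0 to 33.5 FPKM in treated mice. Myeloid markers rose in 5 of 5 tested genes of 6, from sums of 4.21 to 9.19 FPKM to 48.4 to 113 FPKM. Markers of CD8 T and NK cells rose in 2 of 4 tested genes of 5, from 25.8 to 27.5 FPKM to 42.6 to 51.4 FPKM, and proliferation markers, with 0 of 6 called, read 34.8 to 43.0 FPKM in treated and 30.6 to 33.0 FPKM in untreated mice. Meanwhile 3 of 7 CD4+ T cell markers fell, where 6.12% of all genes were called lower. Liver sums were 47.1 to 53.8 FPKM in treated and 51.9 to 55.2 FPKM in untreated mice. The part of these other cells in the rise of the 8 genes was not tested.

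**Figure D2:**
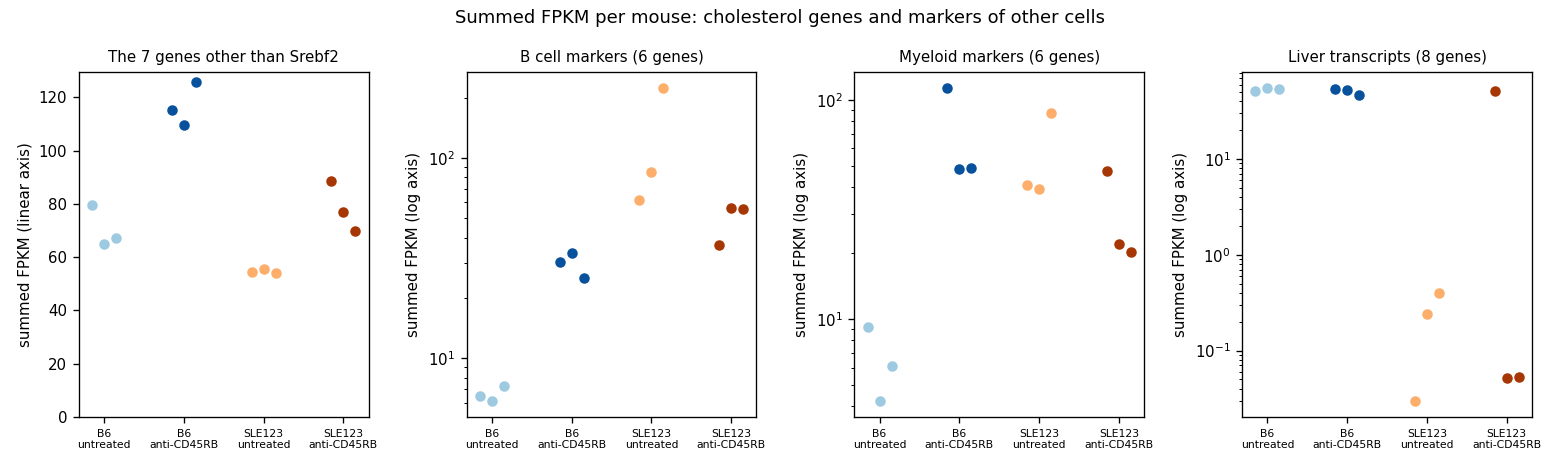
Summed FPKM per mouse for the 7 genes other than Srebf2 (linear axis), B cell markers, myeloid markers and liver transcripts (log axes), by group; each point is 1 mouse. The sum of the 7 genes was higher in treated mice of both strains, while the B cell sum was higher in treated B6 mice and lower in treated SLE123 mice.

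The same question was asked in SLE123 mice. All 8 genes read higher in the 3 treated mice than in the 3 untreated mice, without overlap, as did 13.7% of the genes tested; 58.6% of all genes had a difference above 0. The test across all genes called 0 of the 8, where it called 0.0381% of genes in either direction. At an unadjusted p under 0.05, 8 of the 8 passed in limma, as did 10.4% of all genes, and limma's adjusted p lay between 0.29 and 0.47. With all 12 mice in 1 limma fit, 2 of the 8 were called higher, Sqle (adjusted p = 0.038) and Srebf2 (adjusted p = 0.042). The median log2 difference of the 8 was 0.44, against 0.04 over all genes. These medians moved with the scaling. With immunoglobulin and liver marker genes left out of the library totals they were 0.39 and -0.0097. There 7 of the 8 had an unadjusted p under 0.05 in limma. With TPM the medians were 0.66 and 0.22.

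Hmgcs1 read 23.4, 19.0 and 16.2 FPKM in treated SLE123 replicates 1, 2 and 3. Untreated SLE123 replicates 1, 2 and 3 read 13.1, 14.7 and 11.1 FPKM. The lowest treated mouse was only slightly above the highest untreated one. The log2 difference was 0.55 (SE 0.151, limma adjusted p = 0.44).

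Sqle had the largest difference of the 8 in SLE123, with 8.93, 6.57 and 6.13 FPKM in treated and 3.73, 3.74 and 4.01 FPKM in untreated mice. The untreated mice were close together and far below the treated mice. The log2 difference was 0.75 (SE 0.138, limma adjusted p = 0.29). Cyp51, next along the pathway after Lss, read 14.9, 12.1 and 12 FPKM in treated and 8.91, 9.43 and 8.55 FPKM in untreated SLE123 mice. That log2 difference was 0.49 (SE 0.104, limma adjusted p = 0.37).

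Among the other enzymes, Idi1 read 4.59, 4.12 and 3.87 FPKM in treated and 2.68, 2.44 and 3.20 FPKM in untreated SLE123 mice. Lss read 4.42, 4.24 and 4.09 FPKM in treated and 3.41, 2.47 and 3.05 FPKM in untreated mice. Fdft1 was the closest to overlap, at 11.6, 9.80 and 9.42 FPKM against 7.57, 9.24 and 8.13 FPKM. The log2 differences were 0.46 for Idi1, 0.41 for Lss and 0.27 for Fdft1, the smallest of the 8.

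Of the regulators, Insig1 read 20.7, 21.1 and 18.3 FPKM in treated and 14.9, 13.6 and 16.0 FPKM in untreated SLE123 mice. Srebf2 read 62.1, 55.3 and 55.0 FPKM in treated and 45.5, 47.5 and 41.4 FPKM in untreated mice. Both had groups that were clearly apart, with log2 differences of 0.41 (SE 0.0939) and 0.35 (SE 0.0876).

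Treated SLE123 replicate 1, the mouse with liver transcripts, was the highest of its group in 7 of the 8 genes, and replicate 3 was the lowest in 8. Without replicate 1 the median log2 difference of the 8 was 0.39, with 8 of 8 above 0 and 7 at an unadjusted p under 0.05. Without it and untreated replicate 3 together, the median was 0.38, with 8 of 8 above 0 and 5 at an unadjusted p under 0.05. The B cell, plasma cell and erythroid markers ran the other way from B6, lower in treated SLE123 mice: B cell sums were 36.8 to 56.5 FPKM against 62.0 to 223 FPKM in untreated mice. Other lists moved with the 8 genes: CD8 T and NK markers summed to 17.4 to 21.8 FPKM in treated and 10.4 to 12.4 FPKM in untreated SLE123 mice, without overlap, with 3 of 4 tested genes higher in sign. Regulatory T cell markers summed to 166 to 190.1 FPKM in treated and 153 to 163 FPKM in untreated SLE123 mice, with 5 of 5 genes higher in sign. Naive T cell markers were higher in sign in 5 of 5 genes and proliferation markers in 6 of 6. The sums of both overlapped between treated and untreated mice. Myeloid markers read mostly lower, with 1 of 5 tested genes higher in sign, and their sums overlapped too. limma called 0 genes of any of these lists with treatment in SLE123. The part of these cells in the SLE123 values was not tested.

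Set side by side, treated mice lay above untreated mice without overlap in both strains for 8 of the 8 genes. The same held for 410 of all 13115 genes tested, or 3.13%. The 8 were chosen with earlier results of these data known, so this contrast is no test of the set. The strains share no mice in these comparisons.

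**Figure D3:**
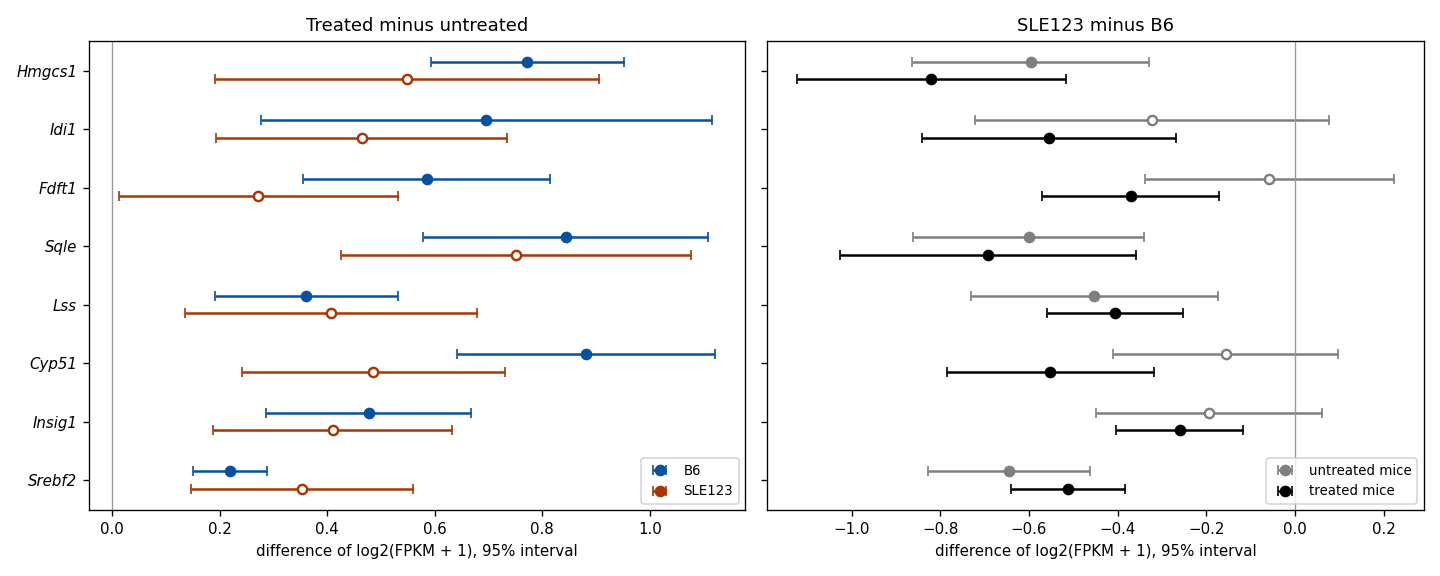
Differences of log2(FPKM + 1) for the 8 genes with 95% intervals from limma (x axes): treated minus untreated in B6 and SLE123 (left), and SLE123 minus B6 in untreated and treated mice (right). Filled points passed an adjusted p of 0.05, open points did not; the treatment differences all lie above 0 and the strain differences all below 0.

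Whether treatment acted differently in the strains was tested directly with the interaction, the SLE123 log2 difference minus the B6 log2 difference, on all 12 mice. limma called 0 of the 8 genes, against 3.64% of all genes in either direction. At an unadjusted p under 0.05 stood 25.1% of all genes and 1 of the 8, Cyp51, at -0.40 (95% interval -0.73 to -0.065, adjusted p = 0.14), a smaller rise in SLE123. Fdft1 stood at -0.31 (95% interval -0.64 to 0.018). The intervals of Hmgcs1 (-0.62 to 0.18), Idi1 (-0.72 to 0.25) and Sqle (-0.50 to 0.32) all include 0, as do those of Insig1 (-0.35 to 0.21), Lss (-0.24 to 0.33) and Srebf2 (-0.064 to 0.33). A p that misses the threshold does not show that the strains respond alike. Without SLE123 untreated replicate 1 the genes called in all went from 478 to 2917, and 0 of the 8 was called.

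The strains were then compared without treatment. All 8 genes read lower in untreated SLE123 than in untreated B6 mice, as did 52.6% of all genes, and 4 of the 8 were called lower, where 20.1% of all genes were. The 4 genes were Srebf2, Sqle, Hmgcs1 and Lss. Srebf2 fell by 0.65 on the log2 scale (SE 0.0777, limma adjusted p = 0.00074), from 69.6 to 71.4 FPKM in B6 to 41.4 to 47.5 FPKM in SLE123. Sqle and Hmgcs1 each fell by 0.60 (limma adjusted p = 0.0048 and 0.0054), and Lss fell by 0.45 (limma adjusted p = 0.019). The groups did not overlap for any of these 4, and 29.5% of all genes were lower in SLE123 without overlap. Lss was not past the threshold without B6 untreated replicate 3, 4 or 5, at adjusted p between 0.053 and 0.078.

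The other 4 overlapped between the strains. Their log2 differences were -0.32 for Idi1, -0.19 for Insig1 and -0.16 for Cyp51. Fdft1 stood at -0.06 with FPKM as deposited, and at 0.055 when immunoglobulin and liver marker genes were left out of the library totals. Ctsb, which overlaps Fdft1 on the other strand, was higher in untreated SLE123 mice by 1.26 on the log2 scale (limma adjusted p = 0.00016).

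FPKM shares each library among its transcripts, and the scaling mattered between the strains. Rescaled to TPM, 8 of the 8 were called lower, but the median of all genes was then -0.38, against -0.03 before, and 5974 genes were called lower and 1914 higher, against 2631 and 2990. Without immunoglobulin and liver marker genes, 3 of the 8 were called lower, Lss no longer among them, with 1787 genes called lower and 3569 higher. Relative to the median of all genes, the median of the 8 was -0.36 with FPKM, -0.39 with TPM and -0.36 without immunoglobulin and liver marker genes. In untreated SLE123 mice B cell markers were called higher in 6 of 6 genes, plasma cell markers in 6 of 6 and proliferation markers in 6 of 6. Regulatory T cell markers were called higher in 4 of 5 and activated T cell markers in 4 of 6. Myeloid markers were called higher in 4 of 5 tested and erythroid markers in 3 of 3 tested. Naive T cell markers were called lower in 5 of 5, and CD8 T and NK markers in 2 of 4 tested. Of all genes, 22.8% were called higher and 20.1% lower. Liver transcripts were called lower in 7 of 7 tested genes of 8. Their sums were 51.9 to 55.2 FPKM in untreated B6 and 0.0296 to 0.396 FPKM in untreated SLE123 mice. The parts of cell makeup and of the source of the liver transcripts in the strain difference were not tested.

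Among treated mice, 8 of the 8 genes were called lower in SLE123 than in B6, where 22.5% of all genes were called lower. The groups did not overlap for any of the 8, as for 27.1% of all genes in this direction, and 46.1% of all genes had a difference below 0. The log2 differences ran from -0.82 for Hmgcs1 (SE 0.127, limma adjusted p = 0.0019) to -0.26 for Insig1 (SE 0.05999, limma adjusted p = 0.010). Srebf2 stood at -0.51 (SE 0.0537, limma adjusted p = 0.00036) and Sqle at -0.69 (SE 0.140, limma adjusted p = 0.0059). With TPM, 8 of the 8 were also called lower, and the median of the 8 relative to all genes was -0.59, against -0.56 with FPKM. In treated SLE123 mice, naive T cell markers were called lower in 5 of 5 genes and CD8 T and NK markers in 4 of 4 tested. Proliferation markers were called higher in 6 of 6, plasma cell markers in 6 of 6 and regulatory T cell markers in 4 of 5. Activated T cell markers were called higher in 4 of 6 and lower in 2. B cell markers were called higher in 3 of 6 and lower in 2, and myeloid markers lower in 3 of 5 tested. Of all genes, 29.6% were called higher. The part of cell makeup in this difference was not tested. This comparison and that of the untreated strains share their mice with the treatment comparisons.

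Treated SLE123 mice read near untreated B6 mice in most of these genes. The ranges of the 2 groups overlapped for 6 of the 8. Hmgcs1 averaged 19.5 ± 3.64 FPKM in treated SLE123 and 20.02 ± 1.63 FPKM in untreated B6 mice (SD, n = 3 each), and Lss 4.25 ± 0.162 against 4.42 ± 0.261 FPKM. The exceptions were Cyp51, higher in treated SLE123 mice at 13.01 ± 1.66 against 10.2 ± 1.40 FPKM, and Srebf2, lower at 57.5 ± 3.98 against 70.5 ± 0.901 FPKM. This pair of groups differs in both strain and treatment and was not tested. The FPKM of the 7 genes other than Srebf2, summed per mouse, overlapped as well: 88.5, 76.9 and 70.0 FPKM in treated SLE123 and 79.8, 64.8 and 67.2 FPKM in untreated B6 mice. The sums were 115, 110 and 126 FPKM in treated B6 mice and 54.3, 55.5 and 54.1 FPKM in untreated SLE123 mice, the groups at the ends of the order.

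The other enzymes of the pathway were read from a list of 13 genes. In B6, 4 of the 13 were called higher with treatment, where 8.74% of all genes were, and 0 lower. The 4 were Fdps, Mvd, Mvk and Ebp. Fdps, which makes farnesyl diphosphate, rose by 0.80 on the log2 scale (SE 0.109, limma adjusted p = 0.0065). It read 53.1, 49.0 and 60.9 FPKM in treated and 34.3, 26.5 and 31.6 FPKM in untreated B6 mice, without overlap. Mvd, Mvk and Ebp rose by 0.46, 0.28 and 0.24. In sign, 12 of the 13 were higher, with a median of 0.24, where 49.3% of all genes were higher.

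In SLE123, 0 of those 13 were called with treatment, and 13 of 13 were higher in sign, where 58.6% of all genes were. In limma 7 had an unadjusted p under 0.05, as did 10.4% of all genes. The median log2 difference was 0.27, against 0.04 over all genes. Fdps read 41.8, 32.4 and 33.3 FPKM in treated and 23.4, 30.7 and 27.9 FPKM in untreated SLE123 mice, again without overlap. Between the strains without treatment, 3 of the 13 were called lower in SLE123 (Mvd, Lbr and Mvk) and 2 higher (Ebp and Pmvk). Of all genes, 20.1% were called lower and 22.8% higher there. Among treated mice 6 were called lower, namely Acat2, Fdps, Lbr, Msmo1, Mvd and Mvk, and Ebp and Pmvk higher. Of all genes, 22.5% were called lower and 29.6% higher in that comparison.

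**Figure D4:**
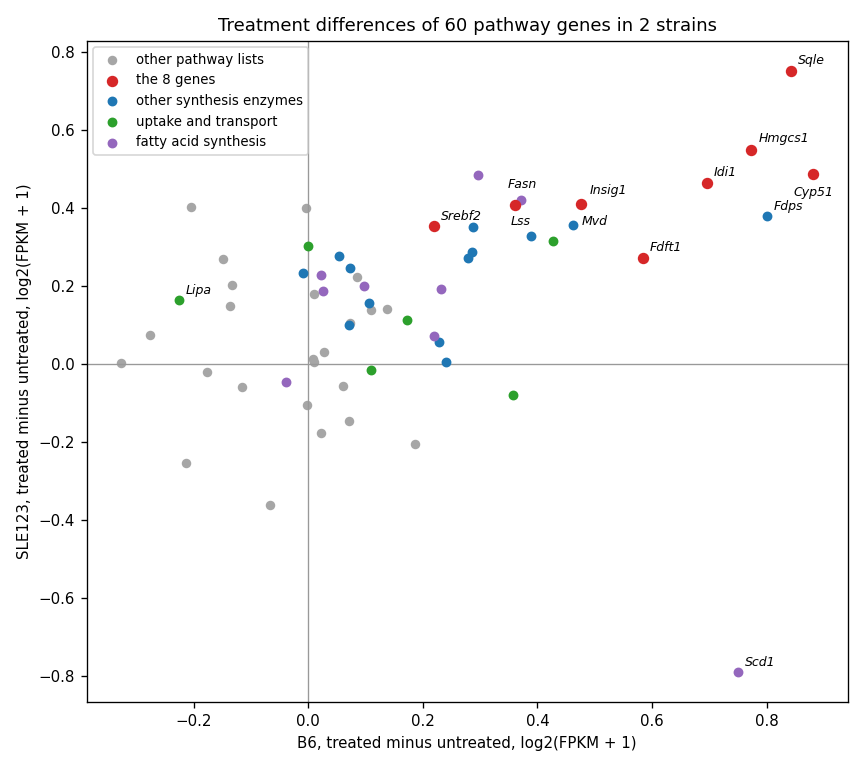
Treated minus untreated log2(FPKM + 1) in B6 (x axis) and SLE123 (y axis) for 60 tested genes of the pathway lists; colours mark the lists and each point is 1 gene. The 8 genes, Fdps and Mvd lie above 0 on both axes, and Scd1 lies above 0 in B6 and below 0 in SLE123.

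Of 7 genes of uptake and transport, 6 were tested. With treatment in B6, Stard4, Scarb1 and Npc2 were called higher at 0.43, 0.36 and 0.17 on the log2 scale. Lipa, the lysosomal lipase, was called lower at -0.23. Of all genes, 8.74% were called higher and 6.12% lower. In SLE123, limma called 0 of the 6 with treatment, and 1 had an unadjusted p under 0.05, as did 10.4% of all genes. Without treatment, Lipa, Npc1, Npc2 and Stard3 were called lower in SLE123 than in B6, where 20.1% of all genes were. With treatment Lipa, Npc2 and Stard3 were, where 22.5% of all genes were.

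A list of genes of the SREBP machinery and its control showed no called change with treatment. Of the 7 on that list (Srebf1, Scap, Insig2, Mbtps1, Mbtps2, Rnf139 and Ube2g2), 0 were called in B6 and 0 in SLE123. In limma 3 and 1 had an unadjusted p under 0.05, as did 32.3% of all genes in B6 and 10.4% in SLE123. Scap differed by 0.11 in B6 (limma adjusted p = 0.12) and 0.14 in SLE123 (limma adjusted p = 0.48), and Srebf1, the factor for fatty acid genes, by 0.01 and 0.18. Between the strains without treatment, Scap and Mbtps1 were called lower in SLE123 and Insig2 and Ube2g2 higher. Of all genes, 20.1% were called lower and 22.8% higher there. Insig2, the other INSIG gene, was called higher in treated SLE123 mice as well, by 0.28 (limma adjusted p = 0.0030). Insig1 stood at -0.26 there. Scap was again called lower and Mbtps2 higher, where 22.5% of all genes were called lower and 29.6% higher.

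Genes of the branches away from cholesterol were also read. For efflux, esterification and the LXR receptors, which answer sterol excess, 0 of 7 genes were called in either strain, with 3 and 1 at an unadjusted p under 0.05 in limma. For the isoprenoid branch 0 of 8 were called, with 1 and 2 at an unadjusted p under 0.05. Of all genes, 32.3% in B6 and 10.4% in SLE123 had such a p in limma. Of the fatty acid genes, 3 of 9 tested were called higher in B6, where 8.74% of all genes were. These were Scd1 at 0.75, Fasn at 0.37 and Acaca at 0.30 on the log2 scale. In SLE123, 0 were called, and 2 had an unadjusted p under 0.05 in limma. Scd1 was low in B6, at 1.38 to 1.83 FPKM treated and 0.4999 to 0.640 FPKM untreated, and SLE123 untreated replicate 3 read 7.57 FPKM against 1.22 to 2.09 in the other 5 SLE123 mice. Of the oxysterol genes 2 of 4 were tested and 0 were called with treatment in either strain, with 0 at an unadjusted p under 0.05. 

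Between the strains, 42.9% of all genes were called in either direction without treatment and 52.1% with it. Without treatment, Dhdds, Fnta, Fads2, Scd1 and Scd2 were called higher in SLE123, and Fntb, Ggps1, Acss2, Fasn and Mylip lower, 10 of the 26 branch genes tested. With treatment, Dhdds, Fnta, Pggt1b, Fads2, Scd2 and Abcg1 were called higher, and Fntb, Acss2, Fasn, Mylip and Gpr183 lower, 11 of the 26. The log2 differences of Fntb, a subunit of the farnesyltransferase that uses the product of Fdps, were -0.91 and -0.86.

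Across the 12 mice the profile of the 8 genes (their mean z-score) was most like those of Resf1 (Pearson r = 0.963), Prkx (0.955), Slc39a10 (0.954), Ezr (0.954) and Dync1li1 (0.952), among 7841 protein-coding genes averaging 5 FPKM or more outside the lists. Within the pathway lists, the highest were Fdps (r = 0.945), Msmo1 (0.929) and Fasn (0.921). By single gene, the nearest were Ezr for Hmgcs1 (0.978), Slc39a10 for Idi1 (0.929) and Sqle (0.962), Cdyl for Fdft1 (0.948), Ncoa3 for Lss (0.980), Pea15a for Cyp51 (0.963), Ccdc6 for Insig1 (0.933) and Sgk1 for Srebf2 (0.986). The 12 mice fall into 4 groups, so these values largely restate the group levels and are given as a description.

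In GRCm38 with the GENCODE annotation, Hmgcs1 and Idi1 lie on chromosome 13, at 119690379 to 119708260 and 8885501 to 8892451. Sqle and Srebf2 lie on chromosome 15, at 59315077 to 59331192 and 82147181 to 82205379, and Cyp51 and Insig1 on chromosome 5, at 4081145 to 4104746 and 28071363 to 28078662. Fdft1 is on chromosome 14 at 63145150 to 63179578 and Lss on chromosome 10 at 76531588 to 76557138. Opposite-strand exons covered 12.1% of the exonic bases of Hmgcs1 (Gm48342), 9.22% of Idi1 (Gm48574), 3.76% of Cyp51 (Akap9) and 3.53% of Lss (4930483K19Rik), so reads from such bases cannot be assigned by strand here. Akap9 did not pass the threshold with treatment in B6 (log2 difference -0.03, limma adjusted p = 0.82).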

How the data were processed

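CD4+ T cell RNA of 12 mice (3 in each of 4 groups, from the titles and treatment labels) was sequenced after poly-A selection. The authors deposited FPKM per Ensembl gene. The submitters' processing notes name CASAVA 1.8, STAR and mm10; the counting program, annotation and strand setting are not given in the sources used here. Nothing beyond the labels says how mice were chosen. The p-values set each group difference against the spread between these mice, which limma moderates over all genes tested. FPKM were whole multiples of 1 fragment (tolerance 0.02 fragments) for 100% of 23230 genes above 0, which gave depth; counting errors cover counting only. Of 35275 identifiers, 34490 were in GENCODE M21.

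log2(FPKM + 1) was fitted with limma 3.58.1 (R 4.3.3; lmFit, eBayes with trend) over the 13115 genes averaging 0.5 FPKM or more, with Benjamini-Hochberg adjustment at 0.05, on the 6 mice compared or, for the interaction, all 12. Fold changes on this scale understate changes of low genes. The fit was tested on simulated data. Named genes are the 8 genes, pathway genes called in any comparison plus Srebf1 and Scap, and the nearest profiles; some genes of the rule are not reported here. Ctsb and Akap9 were added after their values were seen. Members, lists and motifs were chosen with earlier results of these data known.

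Alternatives were pseudocount 0.1, filters of 1 FPKM and none, TPM, median centring, robust eBayes, voom on recovered fragments, all 12 mice in 1 fit, the replicate number as a block, totals without immunoglobulin and liver marker genes, and leaving out mice.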

Additional observations from a re-analysis of the deposited data

Results flagged for a closer look

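Ube2g2, a ubiquitin-conjugating enzyme of the endoplasmic reticulum, read higher in treated than in untreated B6 mice and lower in treated than in untreated SLE123 mice, without overlap in either strain. The difference between the strains was -0.39 on the log2 scale. Ggps1, geranylgeranyl diphosphate synthase, went the other way, with a difference of 0.42. Both genes were picked out for this pattern, and the share of all genes that have it was not counted. In the higher direction alone, groups were apart for 19.4% of all genes in B6 and 13.7% in SLE123. The overlap pattern itself was not tested, and limma called neither interaction.

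B cell markers had a ratio of treated to untreated group means of 4.45 in B6 and 0.403 in SLE123. For plasma cell markers the ratios were 2.29 and 0.475, and for erythroid markers 5.06 and 0.182. For each of these sums the treated and untreated ranges were apart, in opposite directions in the strains, and the difference of these sums was not tested. By single gene, limma called the interaction lower for 3 of 6 B cell markers and 0 of 6 plasma cell markers. It did so for 3 of 3 tested erythroid markers of 5. Of all genes, 3.64% were called in either direction.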

How the results depend on the processing

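The rise of the 8 genes with treatment in B6 kept its direction under each alternative. Of the 8, 5 were called with no filter on low values, 7 with all 12 mice in 1 fit (Srebf2 at adjusted p = 0.068) and 0 with the replicate number as a block, where 7 had an unadjusted p under 0.05 in limma. Leaving out 1 mouse gave 5 to 7. Genes called in all, 1948 as reported, were 1134 with no filter, 815 with all 12 mice in 1 fit, 0 with the block and 675 to 1393 without 1 mouse. In SLE123, genes called with treatment, 5 as reported, were 21 with TPM, 3 with voom, 53 with all 12 mice, where 2 of the 8 were called, and 1 to 7 without 1 mouse. Untreated strains: TPM called 8 of the 8, and leaving out 1 mouse gave 3672 to 6469 genes. Treated strains: the block called 4 of the 8 and 3414 of 6836 genes. Interaction: 34 genes with the block and 205 to 2917 without 1 mouse, against 478. TPM called 2442 genes higher and 4480 lower between treated strains, against 3881 and 2955.

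Signs turned in 4 genes: Fdft1, Sqle, Insig1 and Lss. Fdft1 between untreated strains was 0.055 without immunoglobulin and liver marker genes; without 1 mouse it ran from -0.13 to 0.041, and was above 0 without B6 untreated replicate 3 (0.041) or SLE123 untreated replicate 1 (0.000587). For the interaction, Sqle was 0.10 and Insig1 0.13 with TPM, where the median of all genes was 0.23. Lss was -0.00618 with median centring and -0.048 to 0.12 without 1 mouse, below 0 without SLE123 untreated replicate 2. Sqle was -0.24 to 0.0026 without 1 mouse, above 0 without SLE123 treated replicate 3. The cause was not tested.

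With group means taken out, same-numbered mice correlated at -0.14 and -0.094 in B6 and at 0.14, -0.16 and 0.27 in SLE123. Such values rest on 3 mice per group and cannot decide whether the replicate numbers pair the mice. The block keeps fewer mice per comparison in B6, where 2 numbers are shared. No paired analysis was possible between untreated strains because they share only the number 3. Depth limits Idi1 most, with the fewest fragments of the 8 genes.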
